A study of Mus musculus with 4 samples.

Results

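The interferon-induced genes were a list of 47 genes known to be switched on by interferons, taken by symbol from the probes of mouse bead arrays, with older symbols of the same gene allowed. The list was split into 14 genes best known as interferon gamma targets and 33 best known as type I interferon targets, although most respond to both. A probe was present for 45 of the 47 genes, 87 probes in all, and Isg15 and Xaf1 were not analysed here. Of the 45 genes, 32 were tested, meaning that at least 1 of their probes stood above the negative controls (detection p under 0.05) on at least 2 of 4 arrays. These 32 were among 13906 named genes tested in the series, and each of them was detected on all 4 arrays.

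The RNA came from tumours of the small intestine in 2 mice, 30 weeks old, of the C57BL/6J strain and of the genotype ApcMin/+, a truncating mutation in one copy of the Wnt pathway inhibitor Apc that makes mice form many intestinal adenomas. From each mouse, 3 small tumours (at most 2 mm across) were combined into one RNA sample and 3 large tumours (4 to 5 mm) into another, giving 4 arrays. Both groups carried the Apc mutation, and normal intestine was not analysed here, so every value compares large with small tumours of mutant animals. Each pool was a mixture of all cells in its tumours, and fewer cells of a type and less RNA per cell cannot be told apart in such samples.

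Interferons are secreted proteins that warn cells of infection or damage. Interferon gamma, made mainly by T cells and natural killer cells, acts through the kinases Jak1 and Jak2 on promoters that hold a short DNA element called GAS. Type I interferons act through Jak1 and Tyk2 and a complex with Stat2 and Irf9 that binds a second element, the ISRE. In the intestine, interferon gamma is known to induce antigen presentation and defence GTPases in epithelial cells, and type I interferons to induce antiviral proteins.

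Each array detected 18969 to 19990 of its 45281 probes. The array of the small pool of mouse 2 stood somewhat apart, with correlations of 0.940 to 0.952 with the other arrays, which correlated with one another at 0.963 to 0.978. Epithelial markers were strongly present: keratin Krt8 had log2 values of 14.40 and 14.61 in the small pools and 14.25 and 14.29 in the large pools (mouse 1 first, as in every pair of values given here), while the probe of Epcam was detected on only 2 of the 4 arrays. No probe of the 20214 tested passed an adjusted p of 0.05 in limma's moderated test without the mouse as a block (percent called 0), and 120 passed with the mouse as a block (percent called 0.594). With 2 pools per size, an exact permutation test of a single gene could not go below p = 0.333 (two-sided).

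Most of the tested interferon-induced genes lay lower in large than in small tumours, and the interferon gamma targets accounted for the widest gaps. Of the 32 tested members, 20 were lower in the large pool of both mice, where 26.7% of all tested genes were, and 5 were higher in both, where 30.7% of all tested genes were. The remaining 7 pointed opposite ways in the 2 animals. These counts took any difference by its sign, however small, such as -0.0008 for Stat2 in mouse 1. Among the 9 tested interferon gamma targets 8 were lower in both mice and 1 was higher, and among the 23 type I targets 12 were lower and 4 higher. Taken over the mean log2 differences of both mice, large minus small, the interferon gamma targets had a median of -0.77. The type I targets had -0.25 and all tested genes 0.02. Within mouse 1 and mouse 2 alone, the medians of the interferon gamma targets were -0.81 and -1.06. Those of the type I targets were -0.08 and -0.13, both smaller in size than their median of the means. Those of all tested genes were 0.03 and 0.01. No member passed an adjusted p of 0.05 in limma, with or without the mouse as a block. Igtp, Ido1, Gbp2 and Gbp3 passed in 2 combinations chosen after seeing the data, the block with median scaling (2.26% of all probes called) and the block with detection on all 4 arrays (2.00% called). At an unadjusted limma p under 0.05, without the block, 6 of the 32 members were below the threshold, all of them lower in large tumours, beside 3.26% of all tested genes that were lower at that level. In 17 of the 32 members both large pools lay below both small pools, beside 17.6% of all tested genes, and in 3 both lay above, beside 22.2%.

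**Figure D1:**
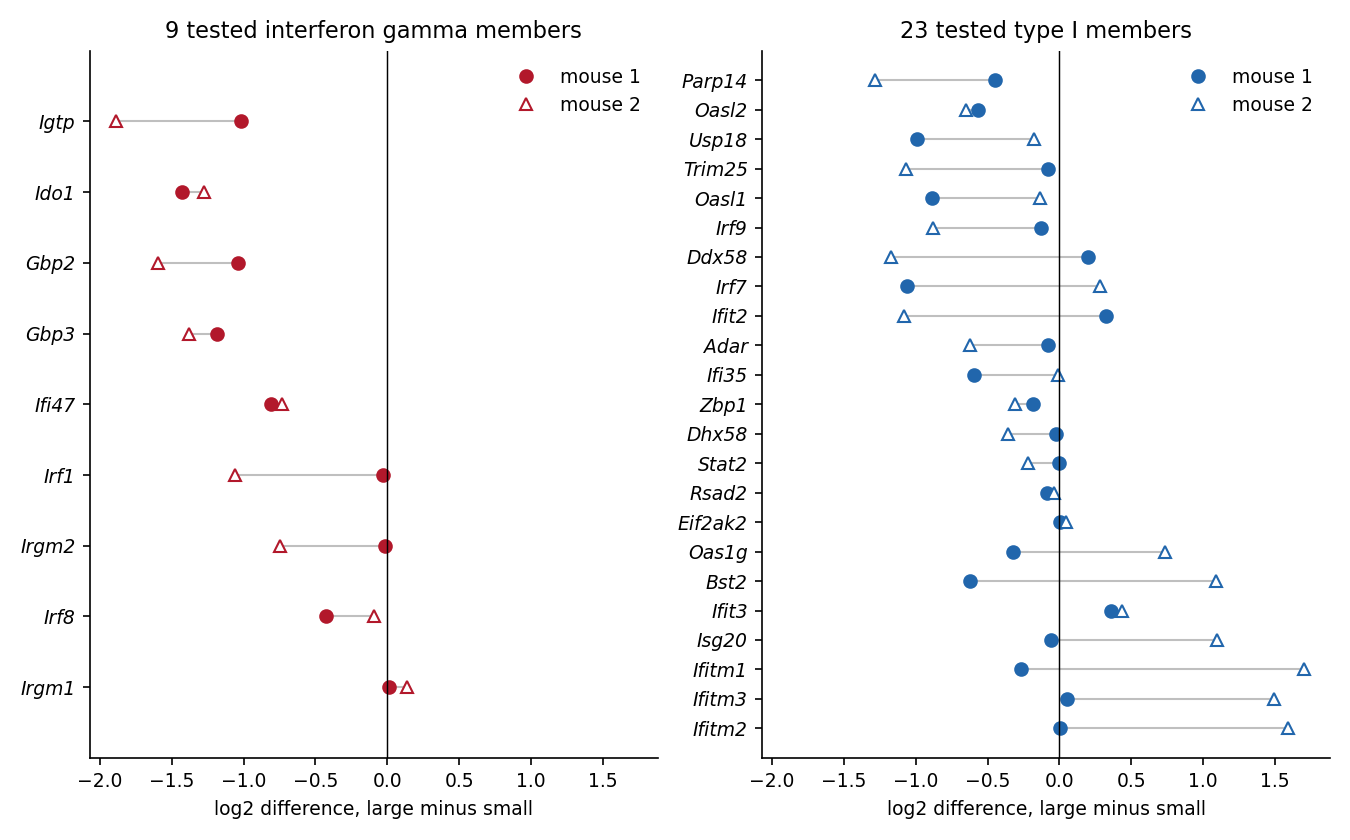
Log2 difference, large minus small pool, of each of the 32 tested interferon-induced genes, with a circle for mouse 1 and a triangle for mouse 2. Of the interferon gamma targets 8 of 9 have both symbols left of 0, while the 3 Ifitm genes stand near 0 or below it in mouse 1 and between 1.49 and 1.70 in mouse 2.

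The first group of interferon gamma targets was the immunity-related and guanylate-binding GTPases, which attack the membranes around intracellular microbes. Of 10 listed, 6 were tested, 5 of these were lower in both mice, and the median log2 difference was -1.03. Igtp, an immunity-related GTPase also called Irgm3, had normalised log2 values of 8.85 and 8.73 in the small pools and 7.83 and 6.84 in the large pools. Both large pools lay below both small pools, and the pools of mouse 2 were the farther apart. As deposited, before any normalisation, the Igtp probe gave bead signals of 467 and 517 in the small pools and 257 and 147 in the large pools. The log2 means were 8.79 ± 0.09 (SD, n = 2) and 7.34 ± 0.70 (SD, n = 2), a 2.74-fold higher level in small tumours, with a log2 difference of -1.45, a standard error of 0.39 and an adjusted p of 0.588 in limma. Without the large pool of mouse 2 the mean difference was -0.96. Igtp stood at rank 85 from the lowest difference among the 13906 genes.

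Gbp2, a guanylate-binding protein, had log2 values of 9.37 and 8.85 in the small pools and 8.33 and 7.26 in the large pools. The groups did not overlap, and the difference was -1.04 in mouse 1 and -1.60 in mouse 2, a 2.49-fold higher mean level in small tumours (log2 standard error 0.42, limma adjusted p = 0.588). Gbp3, a second guanylate-binding protein, had log2 values of 8.17 and 8.05 in the small pools and 6.98 and 6.67 in the large pools. Its small pools lay close together and well clear of both large pools, with differences of -1.18 and -1.38, a 2.43-fold gap (standard error 0.29, limma adjusted p = 0.579). A second tested Gbp3 probe gave a mean difference of -1.36. Ifi47, an immunity-related GTPase, had values of 8.47 and 8.49 in the small pools and 7.66 and 7.76 in the large pools, so that both size groups were tight and separate, with a mean difference of -0.77 (standard error 0.28, limma adjusted p = 0.603).

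The other GTPases differed less or were not detected. Irgm2, listed under its older symbol Iigp2, had log2 values of 9.31 and 9.27 in the small pools and 9.29 and 8.52 in the large pools, so that mouse 1 showed a difference of only -0.02 and mouse 2 one of -0.75. Irgm1, a regulatory member of the family, had values of 11.97 and 11.77 in the small and 11.98 and 11.91 in the large pools on its brightest probe, groups that overlapped, with differences of 0.01 and 0.14. Its second tested probe gave differences of -0.23 and -0.97, so the probes of Irgm1 disagreed. The probes listed as Iigp1, Tgtp1 and Gbp4 were detected on no array and those of Gbp6 on 1. The Tgtp1 probes carry the older symbol Tgtp in the file, and Gbp4 has also been used as an older name of Gbp3, so which gene these probes measured was not settled. The probes' sequences were not among the data used here, so signal shared between near-identical relatives such as Tgtp1 and Tgtp2, or among the Gbp genes, could not be separated.

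The 50 bases around the interferon elements of 3 immunity-related GTPases are shown because the elements lie side by side in all of them. Igtp and Irgm2 nevertheless differed in how far apart the tumour sizes were. The sequences are RefSeq promoters of the build GRCm38.p6, read 5′ to 3′ on the strand of the gene, with the GAS and ISRE matches in capitals: Igtp at chr11:58199501-58199550 on the plus strand, Irgm2 at chr11:58214892-58214941 on the plus strand and Tgtp1 at chr11:48992295-48992344 on the minus strand.
Igtp: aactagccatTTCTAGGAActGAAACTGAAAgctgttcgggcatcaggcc
Irgm2: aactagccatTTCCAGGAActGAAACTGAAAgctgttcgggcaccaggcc
Tgtp1: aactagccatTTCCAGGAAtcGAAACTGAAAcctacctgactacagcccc
In each of these the ISRE match starts 11 bases after the start of the GAS match. The GAS match begins 45 bases upstream of the annotated start in Igtp, 75 in Irgm2 and 88 in Tgtp1. Igtp was the member with the widest mean gap between tumour sizes and Irgm2 had a gap in mouse 2 alone. These 2 genes, with the same element pair, thus had different patterns in these arrays. The probes listed as Tgtp1 were not detected and gave no comparison of the sizes.

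The promoters of Gbp2 and Gbp3 are shown because both genes lay over 2-fold lower in the large pool of each mouse and each holds an ISRE match close to its start. The 250 bases upstream of the annotated start are given, from chr3:142620413-142620662 for Gbp2 and chr3:142559794-142560043 for the first of the 2 annotated starts of Gbp3, both on the plus strand of GRCm38.p6, with ISRE matches in capitals.
Gbp2: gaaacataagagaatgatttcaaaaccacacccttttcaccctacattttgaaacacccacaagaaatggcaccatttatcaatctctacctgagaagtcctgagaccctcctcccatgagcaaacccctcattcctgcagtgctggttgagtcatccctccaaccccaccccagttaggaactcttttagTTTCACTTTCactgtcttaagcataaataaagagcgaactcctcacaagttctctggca
Gbp3: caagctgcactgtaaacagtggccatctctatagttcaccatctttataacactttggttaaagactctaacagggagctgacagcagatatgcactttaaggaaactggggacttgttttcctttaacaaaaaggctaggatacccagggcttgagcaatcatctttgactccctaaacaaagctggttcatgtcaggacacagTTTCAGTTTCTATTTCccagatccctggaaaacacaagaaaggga
The match in Gbp2 begins 59 bases upstream of the start, and the 2 overlapping matches in Gbp3 begin 45 and 39 bases upstream. No GAS match was present in either window, and without the large pool of mouse 2 the mean difference was -0.78 for Gbp2 and -1.13 for Gbp3.

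The second group of interferon gamma targets comprised regulators and the enzyme Ido1. Ido1, listed under its older symbol Indo, is the tryptophan-degrading enzyme indoleamine 2,3-dioxygenase, which starves microbes and T cells of tryptophan. Its log2 values were 9.95 and 9.16 in the small pools and 8.52 and 7.89 in the large pools. Both large pools lay below both small pools, with nearly equal differences of -1.43 and -1.28 in the 2 mice. The mean level was 2.55-fold higher in small tumours (log2 standard error 0.39, limma adjusted p = 0.588). As deposited, its bead signals were 963 and 686 in the small pools and 390 and 269 in the large pools.

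Irf1, a transcription factor that interferon gamma induces and that relays its effects, had log2 values of 11.82 and 12.43 in the small pools and 11.80 and 11.37 in the large pools on its brightest probe. The small and large pools of mouse 1 were almost equal, at a difference of -0.03, while mouse 2 showed -1.06. All 5 tested probes of Irf1 were lower in the large pool of both mice, with mean differences from -1.65 to -0.43. Irf8, a factor of the same family used by macrophages and dendritic cells, had values of 8.52 and 8.45 in the small and 8.10 and 8.36 in the large pools, a narrow separation with a mean difference of -0.26. Socs1, an inhibitor of the pathway that interferon gamma itself induces, was detected on 1 array and not tested. The promoter of Irf1 is shown as an example of a GAS match with no ISRE match in the window, since Irf1 is a classical early target of interferon gamma. The 250 bases upstream of the first of its 2 annotated starts lie at chr11:53769764-53770013 on the plus strand of GRCm38.p6, with the GAS match, which begins 90 bases upstream, in capitals.
Irf1: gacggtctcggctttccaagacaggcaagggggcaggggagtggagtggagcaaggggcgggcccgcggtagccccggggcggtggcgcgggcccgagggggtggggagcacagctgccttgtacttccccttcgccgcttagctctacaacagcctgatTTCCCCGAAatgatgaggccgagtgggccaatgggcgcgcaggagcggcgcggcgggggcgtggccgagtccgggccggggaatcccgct

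**Figure D2:**
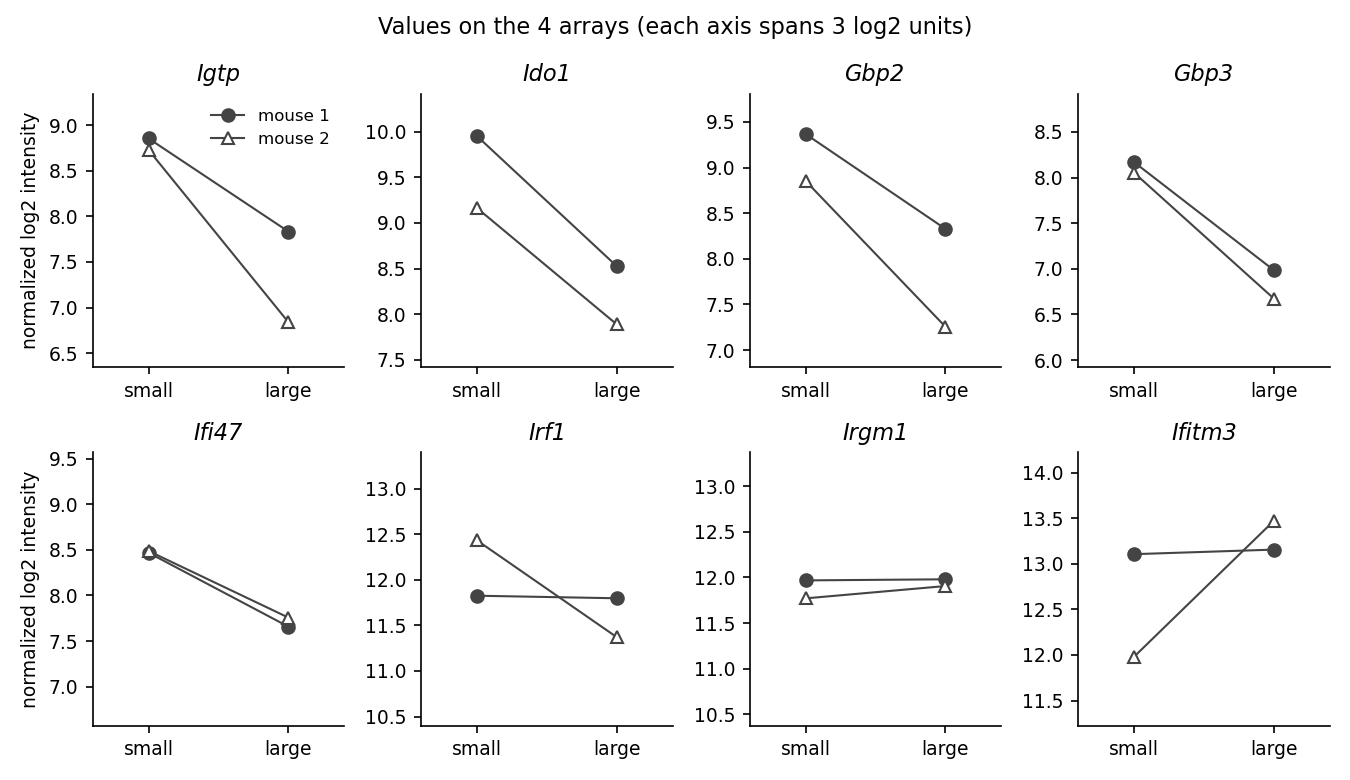
Normalised log2 value of 8 genes on each of the 4 arrays, with small and large pools on the horizontal axis, a circle for mouse 1, a triangle for mouse 2 and a line joining the pools of a mouse; every vertical axis spans 3 log2 units. The lines of Igtp, Ido1, Gbp2, Gbp3 and Ifi47 descend from small to large in both mice, that of Irgm1 is nearly flat, and that of Ifitm3 climbs in mouse 2 alone.

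Among the type I targets, the regulators of the response lay lower in large tumours more often than the antiviral proteins did, a contrast that was not tested. Of 8 listed regulators 6 were tested, and 5 of these lay lower in both animals. Their median log2 difference was -0.54. Parp14, a mono-ADP-ribosyltransferase, had values of 9.58 and 9.91 in the small pools and 9.13 and 8.63 in the large pools. The groups did not overlap, with a mean difference of -0.86, a standard error of 0.32 and a limma adjusted p of 0.605. A second, much dimmer Parp14 probe, at 5.18 and 5.28 in the small pools, gave a mean of 0.03, so its probes disagreed. Parp9, a relative of Parp14, was detected on no array.

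Usp18, the protease that removes Isg15 from proteins and damps type I signalling, had values of 7.72 and 7.29 in the small and 6.73 and 7.11 in the large pools. Its groups did not overlap, and the difference was -0.99 in mouse 1 and -0.18 in mouse 2 on the brightest probe. The second tested probe, detected on 2 arrays, had 5.57 and 5.57 in the small pools. Its large pools, at 4.77 and 4.87, lay below the lowest detected values of their arrays, 4.79 and 4.88. The size of the gap on this probe was therefore not settled. Trim25, the ubiquitin ligase that activates the RNA sensor RIG-I, had values of 10.45 and 11.29 in the small and 10.37 and 10.22 in the large pools, so that the gap on this probe lay almost wholly in mouse 2. Its second tested probe was far dimmer, at 5.39 and 5.72 in the small and 4.75 and 5.28 in the large pools. It differed by -0.64 in mouse 1 and -0.45 in mouse 2. The large pool of mouse 1 was not above background on it, so the split between the animals was not settled by this probe. Irf9, the DNA-binding part of the type I complex, had values of 8.40 and 8.72 in the small and 8.27 and 7.84 in the large pools, again with the wider gap in mouse 2. Stat2, its partner, was nearly level at 6.22 and 6.34 in the small and 6.22 and 6.12 in the large pools. It still counted as lower in both animals, at -0.0008 in mouse 1 and -0.22 in mouse 2. Irf7, the factor that amplifies type I interferon production, had 6.89 and 5.94 in the small and 5.83 and 6.23 in the large pools, and its groups overlapped, with differences of -1.06 in mouse 1 and 0.28 in mouse 2.

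The nucleic acid sensors were closer to level: of 5 tested, 3 lay lower and 1 lay higher in both animals, and the median was -0.25. Zbp1, a sensor of Z-form nucleic acid that can trigger necroptosis, had log2 values of 6.04 and 6.37 in the small and 5.86 and 6.06 in the large pools, which overlapped. Ddx58, which encodes RIG-I, gave 0.20 in mouse 1 against -1.17 in mouse 2. Eif2ak2, the kinase PKR, was level, at 0.005 and 0.05. Adar, the RNA-editing enzyme, lay lower on average on all 4 of its tested probes, with means from -0.92 to -0.04. Dhx58, which encodes the sensor LGP2, gave a mean of -0.19 on its brightest probe. Its other tested probes gave -0.05 and 0.05, so the probes of Dhx58, all dim, had mixed signs. Ifih1, which encodes MDA5, was detected on no array.

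Of the oligoadenylate synthetases and their relatives, which make the second messenger that activates RNase L or sense RNA in related ways, 3 of 5 listed were tested and 2 were lower in both mice. Oasl2 had log2 values of 8.29 and 8.79 in the small and 7.72 and 8.14 in the large pools, so that its groups did not overlap, with a mean difference of -0.61 (standard error 0.33, limma adjusted p = 0.684). Its second tested probe, detected on 3 arrays, gave -0.65 in mouse 1 and 0.42 in mouse 2. On the brightest probe the mean difference was -0.36 without the small pool of mouse 2 and -0.40 without the large pool of mouse 1. Oasl1 differed by -0.89 and -0.13 on its brightest probe. Another tested probe gave -0.67 and -0.05, and a dimmer one -0.36 and -1.54, so the animal with the wider gap depended on the probe. Oas1g pointed opposite ways, at -0.32 in mouse 1 and 0.74 in mouse 2. Oas2 was detected on no array and Oas1a on 1.

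The antiviral effectors, proteins that block viral replication or release, had no common direction. Of 11 listed, 6 were tested, with 2 lower in both mice, 1 higher in both and 3 opposite, and a median log2 difference of 0.09. Ifit3 was the one higher in both mice, at 0.36 and 0.43. Its second tested probe, near background and detected on 2 arrays, gave a mean of -0.20. Ifit2 differed by 0.33 and -1.08, Isg20, an exonuclease, by -0.06 and 1.10, and Rsad2, which encodes viperin, by -0.08 and -0.04. The value of Isg20 in the small pool of mouse 2, 4.89, lay close to the lowest detected value of that array, 4.83. Ifi35 had a difference of -0.60 in mouse 1 and was almost level in mouse 2. The classical antiviral genes Ifit1, Mx2 and Ifi44 were detected on no array and Mx1 on 1.

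On the brightest probe of each gene, Bst2 was the only member with differences over 0.5 in both mice and opposite signs. The less bright tested probes of Ifitm1 also met this rule. Bst2 encodes tetherin, a membrane protein that holds budding viruses to the cell. Its log2 values were 7.78 and 6.40 in the small pools and 7.16 and 7.49 in the large pools. The small pool of mouse 2 was the lowest of the 4 and the small pool of mouse 1 the highest, so mouse 1 differed by -0.62 and mouse 2 by 1.09. Leaving out that lowest pool turned the mean difference from 0.23 to -0.46. The 50 bases that hold the paired elements of Bst2 are shown beside those of the GTPases because here the GAS and ISRE matches overlap, in a gene whose direction differed between the animals. They lie at chr8:71537569-71537618 on the minus strand of GRCm38.p6, with the matches merged in capitals.
Bst2: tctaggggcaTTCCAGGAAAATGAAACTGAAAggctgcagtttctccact

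The interferon-induced transmembrane proteins, which block the entry of viruses at the cell surface and in endosomes, stood apart in direction from the interferon gamma targets. Ifitm3 had log2 values of 13.11 and 11.98 in the small and 13.16 and 13.47 in the large pools. Ifitm1 had 13.28 and 11.76 in the small and 13.01 and 13.47 in the large pools, and Ifitm2 had 13.21 and 11.83 in the small and 13.22 and 13.42 in the large pools. On the brightest probe of all 3 genes the small pool of mouse 2 was the low one and the other pools lay close together. The mean differences were 0.72 for Ifitm1, 0.80 for Ifitm2 and 0.77 for Ifitm3, with limma adjusted p values of 0.726, 0.691 and 0.684. Leaving out that pool, whose array correlated least with the others, gave mean differences of -0.041 for Ifitm1, 0.11 for Ifitm2 and 0.21 for Ifitm3. All 5 tested Ifitm1 probes were lower in the large pool of mouse 1 and higher in that of mouse 2. Their differences ran from -1.63 to -0.27 in mouse 1 and from 1.35 to 1.92 in mouse 2. Ifitm genes are close relatives, and signal shared among their probes could not be separated.

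The differences of the 2 animals were set against each other gene by gene. Across the 9 tested interferon gamma targets, the differences of mouse 1 and mouse 2 correlated at r = 0.674, and across the 23 type I targets at r = -0.05. These are descriptions across genes measured on the same 4 arrays, and genes are not independent replicates. The difference was at least 2-fold lower in both mice in 4 members, Igtp, Ido1, Gbp2 and Gbp3, all interferon gamma targets, beside 0.798% of all tested genes, and at least 2-fold higher in both in 0 members, beside 0.942%.

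**Figure D3:**
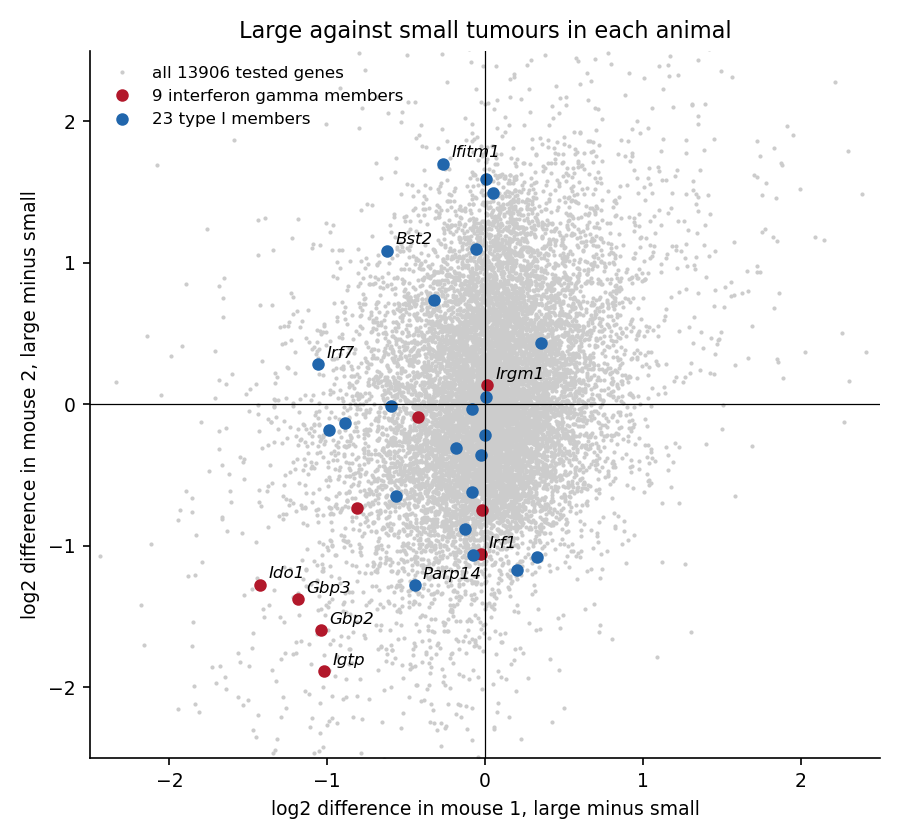
Log2 difference, large minus small, in mouse 1 (horizontal) against mouse 2 (vertical) for every tested gene in grey, with interferon gamma and type I targets marked apart; 105 genes lie outside the axes, which run to 2.5 in each direction. Igtp, Ido1, Gbp2 and Gbp3 lie past -1 on both axes, and Bst2, Isg20 and the Ifitm genes lie above 1 in mouse 2 alone.

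Within a gene, probes often but not always told the same story. Of the tested members 15 had more than 1 tested probe, and in 5 of these the probes' mean differences had mixed signs. Some of these mixed signs rested on dim probes, such as the second probes of Ifit3 and Parp14. Irf1 and Gbp3 had every probe lower in both mice, whereas Irgm1 and Ifit3 had probes on either side of 0.

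**Figure D4:**
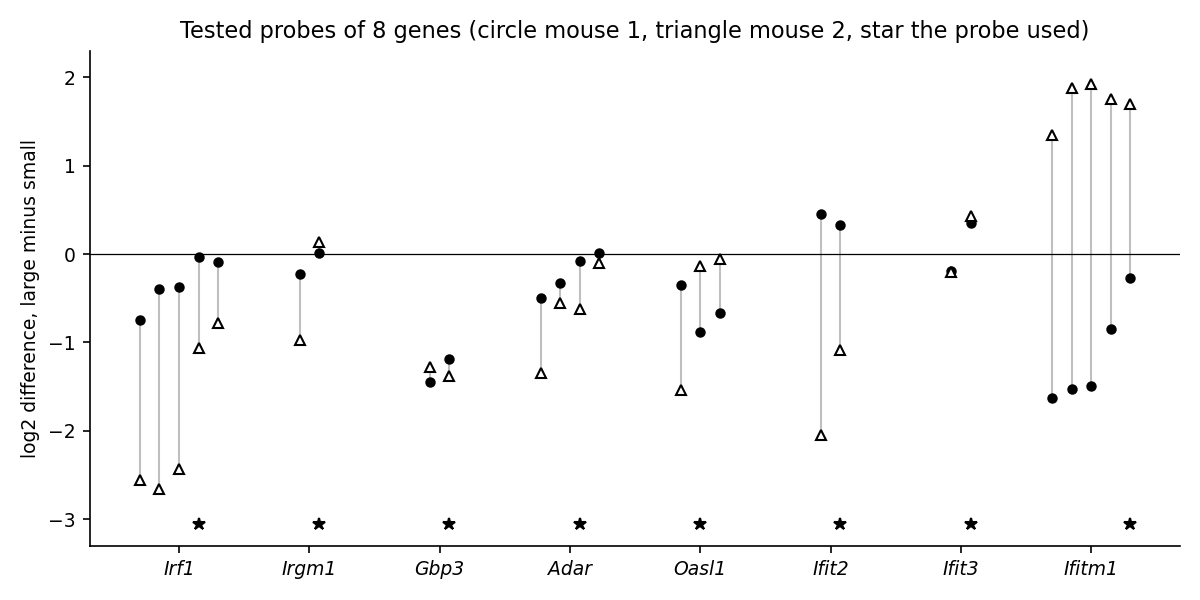
Log2 difference, large minus small, of every tested probe of 8 members with several probes, with a circle for mouse 1, a triangle for mouse 2 and a star under the probe of highest mean level, which represents the gene. All symbols of the 5 Irf1 probes lie below 0, the 5 Ifitm1 probes have every circle below and every triangle above 0, and the 2 probes of Irgm1 and of Ifit3 differ in sign.

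The interferons themselves were hardly seen. Of 19 listed interferon genes 18 had a probe, and 14 of these were detected on no array, among them Ifng, which encodes interferon gamma, and Ifnb1. Of the 3 tested, all at low levels, Ifna6 had log2 values of 4.94 and 5.25 in the small and 5.56 and 5.98 in the large pools. Ifnab had a mean difference of 0.56. Ifnz pointed opposite ways in the 2 animals. As 1 of the pools of each animal was below background, its differences were bounds, 0.25 in mouse 1 and -0.69 in mouse 2. Of the receptors and kinases, 8 of 9 were tested, of which 2 lay lower and 2 higher in both animals. Ifngr2, a chain of the interferon gamma receptor, was higher in both large pools, by 0.74 and 0.52, while Ifngr1, the ligand-binding chain, differed by 0.05 and -0.27. Jak2 had 9.31 and 10.43 in the small and 9.20 and 9.19 in the large pools, so that only mouse 2 showed a gap.

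Other targets of interferon gamma, outside the 47 members, lay lower in large tumours as well. Of 29 listed 24 were tested, 21 were lower and 1 higher in both mice, and the median log2 difference was -0.75. These genes act mainly in antigen presentation and in drawing T cells. Cxcl9, a chemokine that attracts activated T cells, had log2 values of 9.80 and 8.91 in the small and 8.12 and 7.06 in the large pools. Both large pools lay below both small pools, with differences of -1.68 and -1.85, a 3.40-fold mean gap with a limma adjusted p of 0.588 without the block and 0.0366 with the mouse as a block. It was the only one of the 24 below the threshold with the block, and none was without it. Cxcl10, a related chemokine, had 7.02 and 6.52 in the small and 5.62 and 5.02 in the large pools, a mean difference of -1.45. Tap2, a chain of the peptide transporter of antigen presentation, differed by -1.20 and -1.68. Tap1, the other chain, had 6.60 and 6.00 in the small and 5.77 and 5.71 in the large pools, a mean difference of -0.56. The exception was Icam1, an adhesion molecule that other inflammatory signals also induce, which was higher in both large pools by 0.60 and 0.80.

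Other type I targets showed less. Of 26 listed 17 were tested, 9 were lower and 4 higher in both mice, none passed with or without the block, and the median was -0.23. Trim30a, a regulator of inflammatory signalling, had a mean difference of -0.74 and Uba7, the enzyme that activates Isg15, also one of -0.74, whereas Ifi27 was higher by a mean of 0.84, with 0.27 in mouse 1 and 1.42 in mouse 2. Of 12 tested inducers of interferon 7 lay lower and 2 higher in both animals. The widest mean differences were 0.57 for Sting1, the adaptor for cytosolic DNA, and -0.44 for the kinase Tbk1, besides Tlr3, a sensor of double-stranded RNA, which was not well above background in either small pool and was at least 0.53 higher in the large pools on the log2 scale. Of 6 tested inhibitors 4 lay lower and 1 higher in both animals, at means of -0.68 for Nlrx1, -0.54 for Socs3 and 0.13 for Ptpn2, and none of the inducers or inhibitors passed with or without the block.

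**Figure D5:**
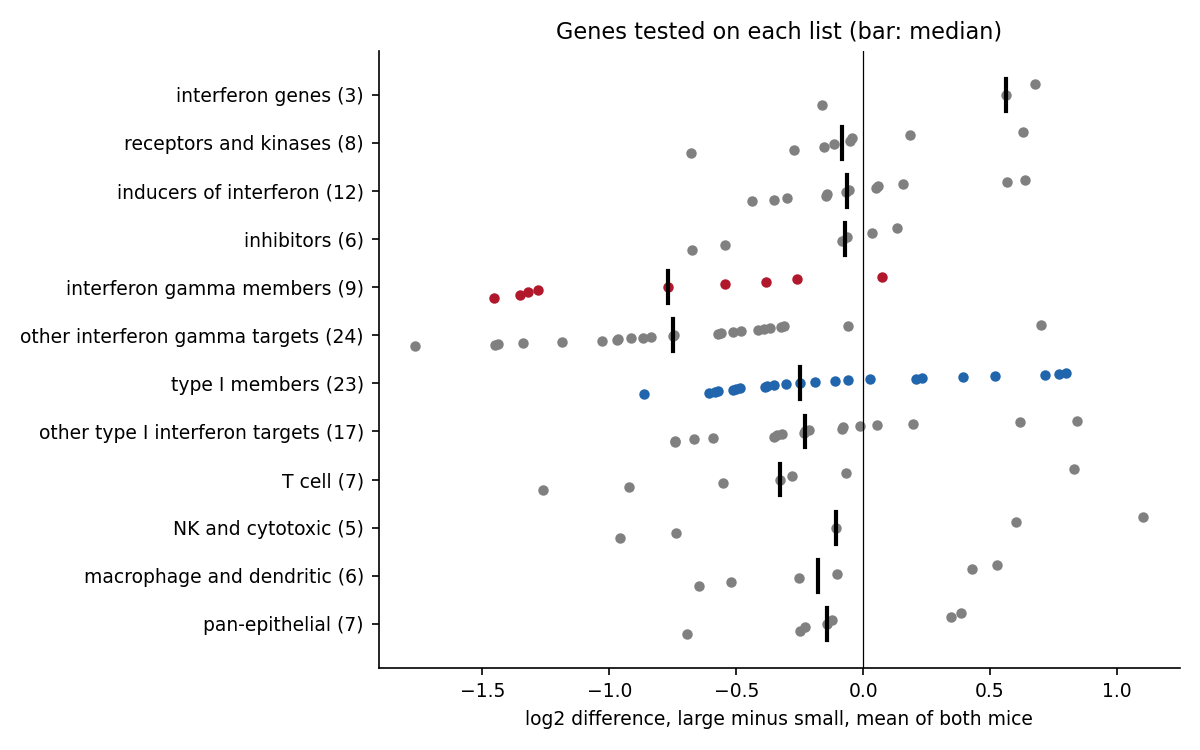
Mean log2 difference over both mice, large minus small, of every tested gene of the pathway lists, the interferon gamma and type I members and the T cell, natural killer, macrophage and epithelial markers, with 1 point per gene, a bar at each list's median and the number of tested genes in parentheses; the vertical offsets only separate points. The medians of the interferon gamma members (-0.77) and of the other interferon gamma targets (-0.75) lie farthest below 0 among the lists drawn, while the enterocyte markers, which are not drawn, had a lower one (-1.19).

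Markers of the cells that make or answer interferon gamma were followed beside these values, and their part in the result was not tested. Of 7 tested of 10 listed T cell markers 3 lay lower and 1 higher in both animals, and their median was -0.33. Cd2, among the 3 lower, was below background in both pools of mouse 2, so its direction there was not settled. Cd3e, part of the signalling complex of the T cell receptor, gave -1.18 and -1.34, and Thy1 was higher by 0.68 and 0.98, while Cd4 and Cd8a were detected on no array. The summed linear level of the T cell markers was 3038 and 3539 in the small and 3564 and 2538 in the large pools, which overlapped. Such sums are weighted towards the brightest probe, here Cd8b1. Its log2 values were 11.00 and 11.58 in the small and 11.46 and 10.99 in the large pools. Of 5 tested of 8 natural killer and cytotoxic markers 3 lay lower and 2 higher in both animals. Klrk1, among the 3 lower, was likewise below background in both pools of mouse 2. The summed levels of the natural killer and cytotoxic markers were 653 and 307 in the small and 889 and 479 in the large pools. Ncr1 and Gzmb were not tested because they were below the detection limit used. Of 6 tested of 8 macrophage and dendritic cell markers 3 were lower and 1 higher, with sums of 1466 and 920 in the small and 1407 and 1073 in the large pools. Of the 7 tested epithelial markers 4 lay lower in both animals, 2 higher and Cldn7 pointed opposite ways. The 2 higher were Krt18, by 0.48 and 0.21, and Epcam. Epcam was below background in both small pools, so its differences were bounds, at least 0.046 in mouse 1 and 0.43 in mouse 2. The sum of the epithelial markers is weighted towards the brightest probes. It was 43025 and 51296 in the small and 39747 and 41151 in the large pools, so both large pools lay below both small pools. Of 6 tested enterocyte markers 5 lay lower in both animals, with a median of -1.19. All 4 tested neutrophil markers lay higher in both animals, with a median of 2.13, and 3 of them passed with the mouse as a block, where 0.594% of all probes did. Of 6 tested fibroblast markers 5 lay higher in both animals, with a median of 0.73, and Lum, which encodes a collagen-binding proteoglycan, passed with the block (adjusted p = 0.0439) and not without it (0.684). Of 4 tested endothelial markers 2 lay higher in both animals and 2 pointed opposite ways, with a median of 0.71, and the 4 tested smooth muscle markers split likewise, with a median of 0.27. Of 2 tested B and plasma cell markers 1 lay lower in both animals. Medians below 0, as in the interferon gamma targets, were those of the enterocyte (-1.19), B and plasma cell (-0.47) and T cell (-0.33) markers. The macrophage and dendritic (-0.18), epithelial (-0.14) and natural killer (-0.11) medians lay below 0 as well. The neutrophil, fibroblast, endothelial and smooth muscle medians lay on the other side of 0.

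Interferon elements were counted in the promoter windows of the list as a description of its sequence. The RefSeq table held a window, 250 bases before to 50 after an annotated start, for 35 of the 47 members and for 27025 genes in all. The ISRE was searched as GAAA, any 2 bases and GAAA again, or as its reverse complement (TTTC, any 2 bases, TTTC). The GAS was searched as TTCNNNGAA, which reads the same on both strands, and matches of the 2 elements may overlap. At least 1 ISRE match was present in 20 of the 35 members, or 57.1%, and in 3.99% of all genes with a window. A GAS match was present in 13 of the 35, or 37.1%, and in 9.55% of all genes. Among the interferon gamma targets 7 of 10 held an ISRE match and 5 of 10 a GAS match, and among the type I targets 13 of 25 and 8 of 25. Igtp and Irgm2 held both elements, Ifi47 held neither, and Irgm1 held an ISRE match 30 bases upstream although its level differed little between the sizes on its brightest probe.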

How the data were processed

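RNA of 4 tumour pools was biotin-labelled and each pool was measured on 1 Illumina bead array. The deposited scanner table holds, per the file headers, linear intensity values per probe that the authors exported without normalisation from a gene expression module of version 3.2.6; the submitters' processing notes name BeadStudio. Its deposited bead standard error has the unit of the signal, its number of beads per probe is a deposited count, and its deposited detection p-value compares a probe with the negative controls of the array. A matrix of 15274 probes with the authors' normalised intensity values was used as an alternative, and its method is not stated in any source at hand. All per-sample columns of the scanner table were mapped to samples.

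The neqc function of limma 3.58.1 (R 4.3.3) corrected the background by normexp, with the negative controls inferred from detection p-values and an offset of 16, then applied quantile normalisation and log2. The bead standard error had a median of 5.74% to 6.68% of signal over the arrays, and the number of arrays limits the precision. A probe was tested if its detection p was under 0.05 on at least 2 arrays (20214 probes). For each of 13906 genes, the brightest tested probe stood for the gene. Symbols followed RefSeq names of GRCm38.p6, which left 27760 probes as named, updated 7996 and kept the file's own name for 9525. Where a probe was below background on both arrays of a group, its difference is a bound, measured from the array's lowest detected log2 value or the probe's own if higher.

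The test of large against small pools was limma's lmFit and eBayes (two-sided, Benjamini-Hochberg over all tested probes) without the mouse as a block, and with it as an alternative. The p-values rest on 2 animals, each seen through 1 pool per size. The labels give both pools of a number to one animal, so the numbers pair the samples; across genes, the gap between the animals in small pools and that in large pools had r = 0.250. The fit was tested on simulated data. The members and lists were chosen with earlier results of these data known, so no list was tested, and counts and medians stand beside those of all genes. Values on all arrays were given for the 12 tested members with the largest mean difference, for members with opposite signs and both differences over 0.5, and for anchor genes of each role; of the pathway lists, for a few fixed genes and those with the 3 largest differences.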

Additional observations from a re-analysis of the deposited data

How the results depend on the processing

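No member was below an adjusted limma p of 0.05 in the comparison as reported or under the alternatives planned for it, the mouse as a replicate block among them. In combinations chosen after seeing the data, 4 members, Igtp, Ido1, Gbp2 and Gbp3, were below it: with the block and median scaling, at adjusted p of 0.00880, 0.0199, 0.0227 and 0.0326, and with the block and detection on all 4 arrays, at 0.0198, 0.0290, 0.0353 and 0.0414; with the block and no background correction 0 were. Over all alternatives the adjusted p of Igtp ran from 0.00880 to 1.00. The number of probes called was 0 as reported, 2 with median scaling, 120 with the replicate block, 457 with the block and median scaling, 322 with the block and detection on all arrays, and 0 to 73 with 1 array left out (57 without the large pool of mouse 1, 73 without that of mouse 2). With the block, median scaling moved the split from 68 higher and 52 lower to 173 higher and 284 lower, and it moved the median of all genes from 0.02 to -0.03. The median over all members, -0.37, was -0.27 with the authors' matrix, with no background correction (with or without the block), -0.28 with an offset of 50, -0.26 with no detection filter and -0.37 to -0.23 with 1 array left out. The interferon gamma median, -0.77, was -1.11 with the mean of a gene's probes, -0.41 with no filter and -0.85 to -0.76 with 1 array left out. The type I median, -0.25, was -0.16 with the authors' matrix and with no background correction (with or without the block), -0.17 with an offset of 50, -0.35 with median scaling (with or without the block), -0.19 with no filter and -0.20 to -0.11 with 1 array left out. Members lower in both mice numbered 20 in every alternative with both arrays of each size except the mean of probes (21) and no filter (28 of 45). Of 20 named members 16 kept their sign under all 15 alternatives. Irgm1 was at -0.26 with the mean of its probes. With 1 array left out, Irgm1 ran from -0.026 (without the small pool of mouse 2) to 0.17, Irf7 from -0.86 to 0.086 (without that of mouse 1), Bst2 from -0.46 to 0.92 and Ifitm1 from -0.041 to 1.48, both of these lowest without the small pool of mouse 2. The cause of these changes was not tested. The 2 arrays per size limit every value.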
